A study of Mus musculus with 10 samples.

Results

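The growth factors that build and maintain blood vessels, and the receptors they act on, were examined in interscapular brown adipose tissue (iBAT) of high-fat diet (HFD) fed mice with and without the receptor tyrosine kinase AXL. The set was defined by gene name and not by a cut on its values, though earlier results of these data were known. It holds 10 genes, the ligands Vegfa, Vegfb, Vegfc, Angpt1 and Angpt2 and the receptors Kdr, Flt1, Flt4, Nrp1 and Tek, out of 41249 gene identifiers in the count tables. All 10 were among the 13739 genes with a mean above 1 CPM, the normalized read count scaled by library size, that were compared between genotypes. Whole iBAT depots came from 5 Axl KO and 5 wild-type (WT) males. The Axl KO mice are constitutive knockouts of the whole body, in which a gene-trap cassette interrupts Axl, raised from targeted ES cells on a C57Bl6 background, so the knockout is not limited to one cell type of the depot. Both genotypes were littermates kept at room temperature. By the series' design text they began the diet at 6 to 8 weeks of age and stayed on it for 24 weeks, whereas the study's own text gives a slightly older starting age and a slightly longer diet. One library was made per mouse.

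Vascular endothelial growth factors (VEGFs) are secreted dimers that bind receptor tyrosine kinases on endothelial cells. VEGFA, encoded by Vegfa, acts mainly through VEGFR2, the product of Kdr, while VEGFR1, the product of Flt1, binds VEGFA and VEGFB tightly and also exists in a soluble form that traps ligand. VEGFC binds VEGFR3, the product of Flt4, and drives lymphatic growth, and neuropilin 1 (Nrp1) is a co-receptor. The angiopoietins bind TIE2, the product of Tek. Angiopoietin 1 activates TIE2 and keeps vessels quiet, whereas angiopoietin 2, stored in endothelial cells, often opposes it. Brown fat is among the most densely vascularized tissues, and its adipocytes are a known source of VEGFA.

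The genotype and tissue labels were checked first. Axl was at 1.57 ± 0.646 CPM (n = 5, SD) in Axl KO and at 43.1 ± 5.86 CPM (n = 5, SD) in WT mice. This was a log2 fold change of −4.77 (SE 0.20, edgeR adjusted p = 1.1e-07). All 10 brown adipocyte markers passed the filter, and their summed level was 8981 to 12322 CPM in Axl KO and 7348 to 9448 CPM in WT mice. Libraries held 5431014 to 9580215 counts. Reads of skeletal muscle genes, which lie outside the depot, varied widely: the 10 markers summed to 25.0, 6.16, 1754, 635 and 3394 CPM in Axl KO replicates 1 to 5 and to 3282, 860, 4052, 3185 and 821 CPM in WT replicates 1 to 5. In these bulk samples, fewer cells of a type and less RNA per cell cannot be told apart.

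The promoters of 3 receptor genes are shown because the results below compare their transcripts, which share a cell type, mouse by mouse. RefSeq promoter sequences of GRCm38.p6 were found for 8 of the 10 genes, with 2 start sites for Vegfa; Angpt1 and Angpt2 had no entry. The lines below give the 250 bases before the start site on the gene's own strand, 5′ to 3′. Capitals mark every match, on either strand, to the GC box GGGCGG or to the ETS factor cores CAGGAA and CCGGAA.
Tek, forward strand, chr4:94739039-94739288: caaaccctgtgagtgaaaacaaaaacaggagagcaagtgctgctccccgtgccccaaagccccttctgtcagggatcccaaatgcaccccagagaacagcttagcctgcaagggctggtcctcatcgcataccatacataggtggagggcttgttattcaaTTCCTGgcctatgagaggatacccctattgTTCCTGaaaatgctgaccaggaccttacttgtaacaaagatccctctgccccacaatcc
Kdr, reverse strand, chr5:75978456-75978705: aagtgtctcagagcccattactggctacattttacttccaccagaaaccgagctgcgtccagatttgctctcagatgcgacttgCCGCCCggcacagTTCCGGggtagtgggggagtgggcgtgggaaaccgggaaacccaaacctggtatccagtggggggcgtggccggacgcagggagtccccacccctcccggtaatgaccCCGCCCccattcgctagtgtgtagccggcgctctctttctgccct
Flt1, reverse strand, chr5:147726012-147726261: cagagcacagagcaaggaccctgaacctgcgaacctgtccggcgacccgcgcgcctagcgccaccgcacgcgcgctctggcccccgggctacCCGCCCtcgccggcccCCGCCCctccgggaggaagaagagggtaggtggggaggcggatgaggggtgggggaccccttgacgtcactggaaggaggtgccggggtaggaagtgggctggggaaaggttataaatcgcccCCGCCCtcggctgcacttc
The Tek window held 2 ETS cores and no GC box, at a GC content of 51.2%. The Kdr window held 1 ETS core and 2 GC boxes at 61.6% GC, and the Flt1 window held 3 GC boxes and no ETS core of these letters at 70.4% GC. Of all 32851 windows of the same length in the table, 32.7% held a GC box and 35.1% at least 1 of the ETS cores. These are matches of letters and no measurement of binding.

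Ligand and receptor genes differed widely in abundance, and abundance was compared per length, as CPM per kb of annotated exon. Vegfa was the most abundant of the 10 in the mean over 10 mice, at 57.2 ± 4.43 CPM per kb (SD, n = 10), which placed it at percentile 94.8 of the tested genes. It was followed by Vegfb at 49.1 ± 4.21 CPM per kb (SD, n = 10) and Nrp1 at 37.6 ± 2.44 CPM per kb (SD, n = 10). The ranges of Vegfa and Vegfb overlapped, but Vegfa lay above Vegfb in 9 of the 10 mice. Kdr came next at 16.6 ± 1.63 CPM per kb (SD, n = 10), clear of its neighbours on both sides. Tek (9.79 ± 1.42 CPM per kb, SD, n = 10), Angpt1 (9.04 ± 1.87) and Flt1 (7.19 ± 1.10) formed a group with overlapping ranges. The remaining 3 genes lay below the median of all tested genes of 4.15 CPM per kb. These were Vegfc at 1.19 ± 0.303 CPM per kb, Flt4 at 1.03 ± 0.109 and Angpt2 at 0.484 ± 0.248 (SD, n = 10 each). The ranges of Vegfc and Flt4 overlapped, as did those of Flt4 and Angpt2. Of the summed per-length level of the 3 VEGF ligands of the set, Vegfa thus made up 48.7 to 57.6% in single mice. Vegfb made up 41.5 to 50.4% and Vegfc 0.607 to 1.62%. Vegfd, a VEGF ligand outside the set and left out of this sum, was at 1.22 ± 0.163 CPM per kb (SD, n = 10). The exons of Nrp1 share 80 bases with those of the microRNA gene Mir1903, which had 19 to 38 reads per mouse. Exon lengths are unions over all annotated transcripts, so a gene whose tissue uses a short transcript reads lower. Counts per gene cannot separate the splice forms of Vegfa or the soluble from the membrane-bound form of Flt1.

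**Figure D1:**
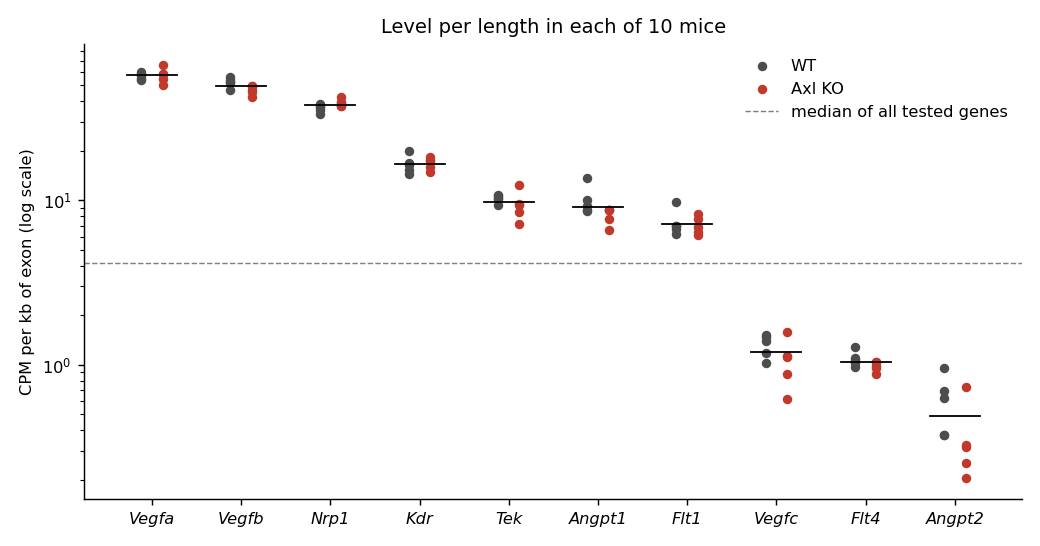
Level per length of the 10 genes in each of the 10 mice, in CPM per kb of exon on a log axis; points are mice, short lines are means over all mice and the dashed line is the median of all tested genes (4.15). Vegfa, Vegfb and Nrp1 lead, and Vegfc, Flt4 and Angpt2 lie below the median.

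Axl KO and WT mice were then compared across the set with edgeR's quasi-likelihood test, fitted on all tested genes. None of the 10 genes had an adjusted p under 0.05 (0 of 10 with edgeR and 0 of 10 with DESeq2), against 0.00728% of all tested genes, a share made up of Axl alone. At an unadjusted p under 0.05, 2 of the 10 genes passed with either tool, Vegfb and Angpt1, both lower in Axl KO mice. Of all tested genes 8.4% passed in either direction, and 3.86% passed and were lower. For none of the 10 were all Axl KO mice on one side of all WT mice in CPM, which was so for 1.35% of all tested genes. The log2 fold change, the standard error (SE) of which is given for single genes, was below 0 for 7 genes and above 0 for 3, with a median of −0.14, where the median of all tested genes was −0.00059.

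**Figure D2:**
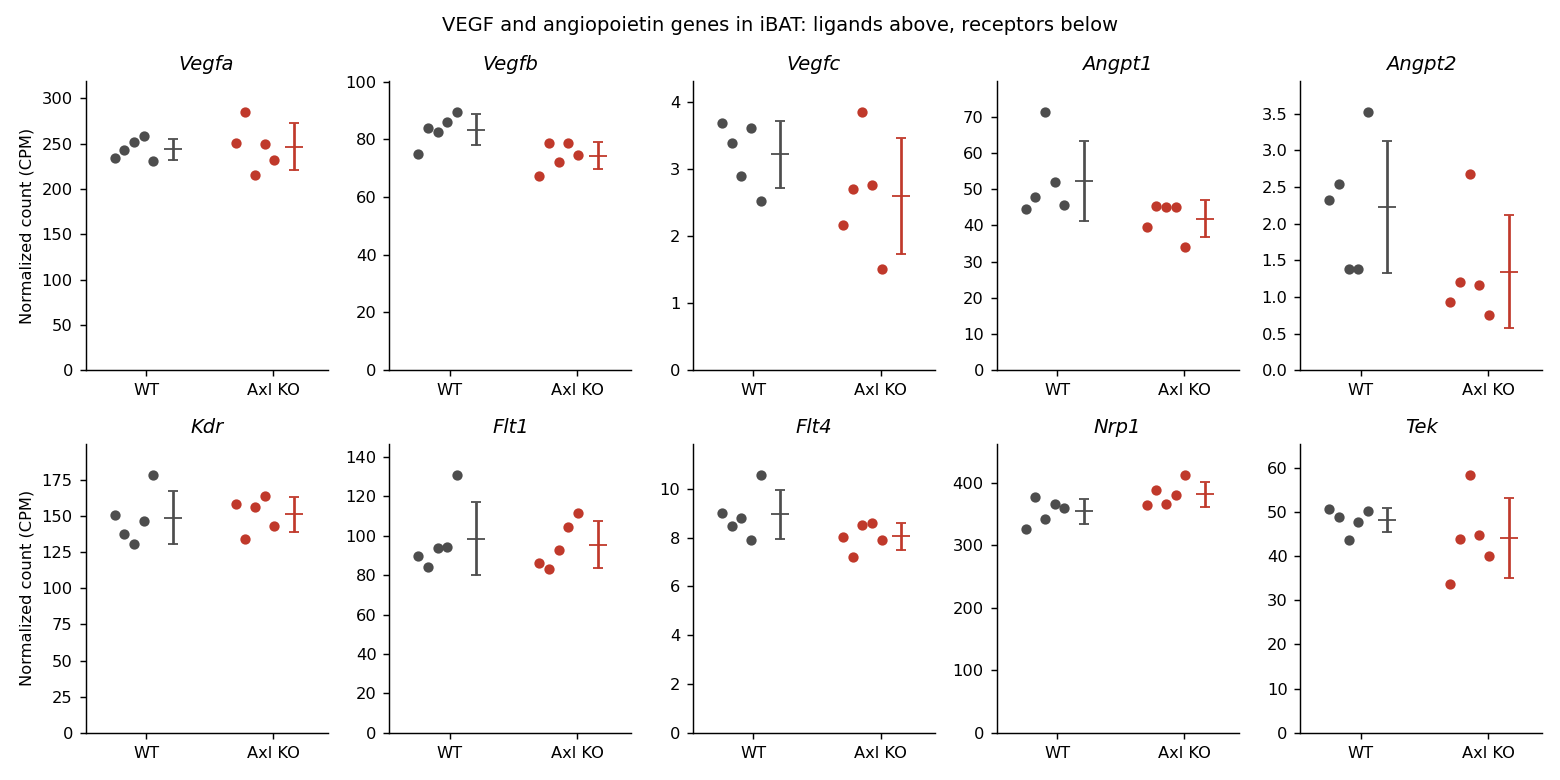
Normalized counts in CPM of the 5 ligand genes (upper row) and 5 receptor genes (lower row) in WT (grey) and Axl KO (red) mice, one point per mouse in order of replicate number, with the mean and SD beside them; each axis starts at 0. The groups overlap for every gene, and 1 Axl KO mouse lies above the other 4 for Angpt2 and for Tek.

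Vegfa (ENSMUSG00000023951, chromosome 17 from 46016993 to 46032369, reverse strand, GRCm38) had nearly the same mean in both genotypes. It was at 250, 285, 215, 250 and 232 CPM in Axl KO replicates 1 to 5 and at 234, 243, 251, 258 and 231 CPM in WT replicates 1 to 5. The highest and the lowest of these values both came from Axl KO mice. The means were 246 ± 25.9 CPM (n = 5, SD) and 244 ± 11.5 CPM (n = 5, SD). The log2 fold difference was 0.016 (SE 0.074, edgeR adjusted p = 0.970), and its 95% interval ran from 0.904-fold to 1.13-fold of WT. Differences within that interval remain compatible with the values of these 5 mice per group. The sign turned without Axl KO replicate 2 (−0.041), without WT replicate 5 (−0.0027) and with the skeletal muscle markers (−0.076) or the endothelial markers (−0.016) as a covariate.

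Vegfb (ENSMUSG00000024962, chromosome 19 from 6982473 to 6987651, reverse strand), which encodes a ligand of VEGFR1 but not of VEGFR2, had the lowest unadjusted p of the set. It was at 67.4, 78.6, 72.3, 78.9 and 74.7 CPM in Axl KO replicates 1 to 5. In WT replicates 1 to 5 it was at 74.9, 83.8, 82.6, 86.1 and 89.5 CPM. All 5 Axl KO mice lay below the WT median, and WT replicate 1 alone kept the groups from standing apart. The means were 74.4 ± 4.77 CPM (n = 5, SD) and 83.4 ± 5.40 CPM (n = 5, SD). The log2 fold difference was −0.16 (SE 0.064, unadjusted p = 0.0238, adjusted p = 0.571 with edgeR), with a 95% interval of 0.810-fold to 0.982-fold. An exact two-sided permutation test of the 10 values gave p = 0.0238. With 1 mouse left out at a time, the log2 fold change stayed between −0.20 and −0.13, and the unadjusted edgeR p was under 0.05 in 7 of the 10 fits; it was 0.0655 without Axl KO replicate 1, 0.0519 without WT replicate 4 and 0.0636 without WT replicate 5.

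Vegfc (ENSMUSG00000031520, chromosome 8 from 54077606 to 54187096, forward strand) rested on 8 to 33 reads per mouse. It was at 2.16, 2.71, 3.85, 2.77 and 1.51 CPM in Axl KO replicates 1 to 5 and at 3.69, 3.39, 2.89, 3.61 and 2.52 CPM in WT replicates 1 to 5. The highest and the lowest value both belonged to Axl KO mice. Its log2 fold difference was −0.27 (SE 0.23, edgeR adjusted p = 0.761). The 95% interval from 0.586-fold to 1.18-fold was wide, and differences within it remain compatible with these values. The log2 fold difference was −0.47 without Axl KO replicate 3 (edgeR unadjusted p = 0.0575) and −0.14 without Axl KO replicate 5 (edgeR unadjusted p = 0.520).

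Angpt1 (ENSMUSG00000022309, chromosome 15 from 42424723 to 42676977, reverse strand), the TIE2 agonist, was at 39.7, 45.4, 45.2, 45.1 and 34.1 CPM in Axl KO replicates 1 to 5. In WT replicates 1 to 5 it was at 44.5, 47.9, 71.3, 51.9 and 45.6 CPM. Every Axl KO mouse lay below the WT median, and WT replicate 3 stood far above the other 9 mice. The means were 41.9 ± 5.00 CPM (n = 5, SD) and 52.2 ± 11.0 CPM (n = 5, SD). The log2 fold difference was −0.32 (SE 0.13, unadjusted p = 0.0306, adjusted p = 0.571 with edgeR), with a 95% interval of 0.661-fold to 0.976-fold; the exact two-sided permutation test gave p = 0.0556. Without WT replicate 3 the log2 fold difference was −0.18 and the unadjusted edgeR p 0.0771, and the p was also above 0.05 without Axl KO replicate 1 (0.0604) or 5 (0.0707). With the skeletal muscle markers as a covariate the unadjusted p was 0.0685. The exons of Angpt1 share 737 bases with the antisense gene Gm17473, which had 0 to 11 reads per mouse against 181 to 617 for Angpt1. The strand setting of the counting is not given in the sources used here.

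The summed level of the 11 pericyte and smooth muscle markers, cells known to make angiopoietin 1, was 772 to 905 CPM in Axl KO and 849 to 957 CPM in WT mice. Of the 11, 2 had a log2 fold change above 0 (median −0.12). Only 1, Notch3, had an unadjusted p under 0.05 in the edgeR test, as did 8.4% of all tested genes. Notch3, a receptor of mural cells, was at 34.9 ± 3.72 CPM (n = 5, SD) against 46.0 ± 10.6 CPM (n = 5, SD), a log2 difference of −0.40 with an unadjusted edgeR p of 0.0146 (adjusted p = 0.571). The pericyte gene Rgs5, the most abundant of the list, was at 428 ± 44.3 against 476 ± 25.3 CPM (n = 5 each, SD). The 8 fibroblast markers summed to 487 to 813 CPM in Axl KO and 705 to 940 CPM in WT mice, and all 8 had a log2 fold change below 0. Of these 8, only Col1a1 and Col1a2, the chains of type I collagen, had an unadjusted p under 0.05 in the edgeR test (0.0290 and 0.0255). Of all tested genes 3.86% had such a p and were lower. The part of either cell type in the lower mean of Angpt1 was not tested.

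Angpt2 (ENSMUSG00000031465, chromosome 8 from 18690263 to 18741562, reverse strand), the TIE2 ligand of endothelial cells, was the rarest of the set, with 138 reads over all 10 mice. Its counts were 6, 8, 23, 8 and 4 reads in Axl KO replicates 1 to 5 and 17, 24, 12, 8 and 28 reads in WT replicates 1 to 5. As normalized counts these were 0.926, 1.20, 2.68, 1.16 and 0.753 CPM in Axl KO mice. In WT mice they were 2.32, 2.54, 1.39, 1.38 and 3.52 CPM. Below the lowest WT mouse lay 4 of the 5 Axl KO mice, and Axl KO replicate 3 lay above 4 of the 5 WT mice. The log2 fold difference was −0.67 (SE 0.37, unadjusted p = 0.0927, adjusted p = 0.635 with edgeR), with a wide 95% interval of 0.361-fold to 1.09-fold. Without Axl KO replicate 3 it was −1.13 (SE 0.34, edgeR unadjusted p = 0.0067, adjusted p = 0.182), and the groups then stood apart. The shares of all tested genes in that refit are not given here, and smaller groups stand apart more easily. With the endothelial markers as a covariate the log2 fold difference was −0.42.

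Tek (ENSMUSG00000006386, chromosome 4 from 94739289 to 94874976, forward strand), whose promoter is printed above, was at 33.6, 43.9, 58.4, 44.7 and 40.1 CPM in Axl KO replicates 1 to 5. In WT replicates 1 to 5 it was at 50.6, 48.8, 43.7, 47.6 and 50.1 CPM. Axl KO mice thus held both the lowest and the highest value, and the highest again came from replicate 3. The means were 44.1 ± 9.09 CPM (n = 5, SD) and 48.2 ± 2.76 CPM (n = 5, SD), and differed on the log2 scale by −0.12 (SE 0.12, edgeR adjusted p = 0.792; 95% interval 0.771-fold to 1.10-fold). Without Axl KO replicate 3 the log2 fold difference was −0.25, with an unadjusted p of 0.0145 and an adjusted p of 0.229 in edgeR's test. Leaving out the highest mouse lowers the Axl KO mean by construction. The share of all tested genes with such a p in that refit is not given here. Without that mouse DESeq2 called 231 of all genes at an adjusted p under 0.05, against 9 with all mice. Without Axl KO replicate 1, the lowest mouse, it was −0.036 with an unadjusted edgeR p of 0.729. With the skeletal muscle markers as a covariate the value for Tek was −0.032, and with the endothelial markers −0.045.

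**Figure D3:**
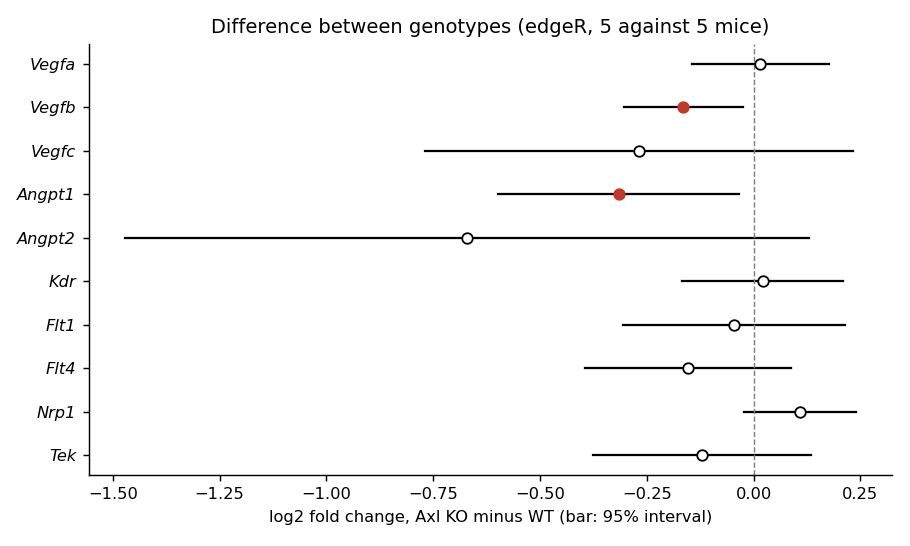
Log2 fold change of each gene between 5 Axl KO and 5 WT mice from edgeR's quasi-likelihood test, with its 95% interval as a bar; filled red points have an unadjusted p under 0.05. The intervals of Vegfb and Angpt1 end below 0, those of Vegfa and Kdr are short and span 0, and that of Angpt2 is the longest.

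Among the VEGF receptors, Kdr (ENSMUSG00000062960, chromosome 5 from 75932827 to 75978458, reverse strand) was at 134 to 164 CPM in Axl KO (median 156) and 131 to 179 CPM in WT mice (median 147). Its log2 fold difference was 0.021 (SE 0.087, edgeR adjusted p = 0.965), with a 95% interval of 0.891-fold to 1.16-fold; the sign turned 3 times when each of the 10 mice was left out in turn. Flt1 (ENSMUSG00000029648, chromosome 5 from 147561604 to 147726011, reverse strand) was at 83.0 to 111 CPM in Axl KO and 84.3 to 131 CPM in WT mice. The groups overlapped: WT replicate 5 was the highest of all, and Axl KO replicates 4 and 5 lay above the other 4 WT mice. Its log2 fold difference was −0.046 (SE 0.12, edgeR adjusted p = 0.934; 95% interval 0.809-fold to 1.16-fold), and it was above 0 without WT replicate 5 (0.078). Flt4 (ENSMUSG00000020357, chromosome 11 from 49609263 to 49652739, forward strand), the lymphatic receptor gene, was at 7.21 to 8.59 CPM in Axl KO and 7.91 to 10.6 CPM in WT mice, and differed on the log2 scale by −0.15 (SE 0.11, edgeR adjusted p = 0.711). Without WT replicate 5, the highest for Flt4 too, this was −0.086.

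Nrp1 (ENSMUSG00000025810, chromosome 8 from 128358604 to 128503363, forward strand) was the only gene of the set whose values all lay above the WT median in Axl KO mice. They were 364, 388, 365, 380 and 413 CPM in Axl KO replicates 1 to 5 and 326, 377, 343, 367 and 359 CPM in WT replicates 1 to 5. Above the highest WT mouse lay 3 of the 5 Axl KO mice. The log2 fold difference was 0.11 (SE 0.061, unadjusted p = 0.0991, adjusted p = 0.641 with edgeR), with a 95% interval of 0.984-fold to 1.18-fold. Across the fits that left out 1 mouse it stayed between 0.078 and 0.13. Nrp1 also varied least between mice of one genotype, with an SD of 0.079 on the log2 scale, where the median tested gene had 0.19 and Angpt2 0.61.

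Ratios within a library do not depend on how libraries are scaled, and 5 were compared with exact two-sided permutation tests. The log2 ratio of Vegfa to Vegfb was 1.72 ± 0.141 (n = 5, SD) in Axl KO and 1.55 ± 0.108 (n = 5, SD) in WT mice, a difference of 0.18 (p = 0.0635, exact permutation test, 0.317 after Benjamini-Hochberg adjustment over the 5 ratios). The log2 ratio of Angpt2 to Angpt1 was −5.01 ± 0.542 (n = 5, SD) against −4.58 ± 0.794 (n = 5, SD), with an exact permutation p of 0.389. Kdr to Flt1 was 0.67 ± 0.189 against 0.60 ± 0.134 (n = 5 each, SD; exact permutation p = 0.571), and Vegfa to Kdr was 0.70 ± 0.234 against 0.72 ± 0.222 (n = 5 each, SD; exact permutation p = 0.913). The sum of Kdr, Flt1 and Tek relative to the mean of 18 endothelial markers was 3.52 ± 0.110 against 3.44 ± 0.0267 on the log2 scale (n = 5 each, SD; exact permutation p = 0.151). None of the 5 differences had a p under 0.05 in this exact permutation test, in which 5 mice against 5 cannot give a p below 0.00794.

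Ligands and receptors were then followed across the 10 mice, over 12 pairs. One pair passed the adjustment, Angpt2 with Tek. Pearson's r of their log2 CPM was 0.81 (permutation p = 0.00261, 0.0313 after Benjamini-Hochberg adjustment over the 12 pairs) and Spearman's rho 0.88 (permutation p = 0.00168, adjusted 0.0202), over n = 10 mice. Without the 2 mice farthest from the median of Angpt2 r was 0.79, and with the genotype means removed it was 0.78. WT replicate 5 and Axl KO replicate 3 were above the other 8 mice for Angpt2 and among the 4 highest for Tek, and Axl KO replicates 1 and 5 were the lowest 2 for both. Both genes are expressed in endothelium, and each also followed the mean log2 level of the 18 endothelial markers (r = 0.74 for Angpt2 and 0.72 for Tek, n = 10). After removing that level r was 0.59, and after removing that of the skeletal muscle markers 0.80. The values of one library share its depth and its piece of tissue.

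**Figure D4:**
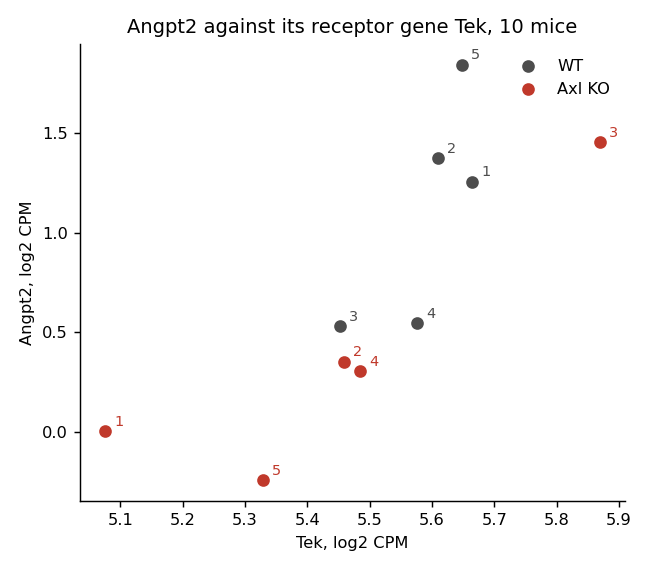
Angpt2 against Tek in log2 CPM in the 10 mice, WT in grey and Axl KO in red, labelled with the replicate number. The points rise together (r = 0.81), from Axl KO replicates 1 and 5 at the lower left to WT replicate 5 and Axl KO replicate 3 at the upper right.

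The other 11 pairs had adjusted permutation p-values between 0.279 and 0.883 for Pearson's r. Kdr with Flt1, the 2 VEGFA receptors, had r = 0.64 (permutation p = 0.0464, adjusted 0.279) and rho = 0.45. Without the 2 mice farthest from the median of Kdr r was 0.36, and with the genotype means removed it was 0.65. Leaving out extreme mice narrows the range, so the lower r does not show that the relation rested on them. Vegfa with Kdr had r = −0.48 (permutation p = 0.157, adjusted 0.619), and Angpt1 with Tek had r = 0.26 (permutation p = 0.454, adjusted 0.843). Kdr with Tek, whose products mark the same cells, had r = 0.14 (permutation p = 0.702, adjusted 0.843). Over all pairs of the 10 genes, with genotype means removed, r ran from −0.65 for Vegfa with Flt4 to 0.81 for Kdr with Flt4, given here as a description of these 10 mice.

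By the same measure, the genes whose values followed Vegfa most closely, among 8650 genes with a mean above 10 CPM, were Csad, an enzyme of taurine synthesis (r = 0.95), Abhd16a (0.95), Lamtor3 (0.94), Mettl2 (0.93) and Rbm7 (0.93). Those closest to Kdr were Fat4, an atypical cadherin (r = 0.96), Dock6 (0.96), Reep3 (0.94), Rprd1a (0.92) and Col4a2, a chain of the type IV collagen of basement membranes (0.91). These values describe the 10 mice and were not tested.

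The rest of the pathway was read from lists compiled from general knowledge, with earlier results of these data known. The counts below stand beside the 8.4% of all tested genes with an unadjusted p under 0.05 in the edgeR test. Of 17 further ligands, receptors and receptor partners, 15 were tested, 0 passed at an adjusted or unadjusted p under 0.05 in the edgeR test, and 2 had a log2 fold change above 0 (median −0.11). Ptprb, the phosphatase that restrains TIE2, was at 173 ± 16.5 CPM (n = 5, SD) in Axl KO and 197 ± 22.9 CPM (n = 5, SD) in WT mice, a log2 difference of −0.18 with an unadjusted edgeR p of 0.0600. Tie1, the orphan relative of TIE2, was at 52.1 ± 7.28 against 59.4 ± 12.1 CPM, and Nrp2, a neuropilin that binds VEGFC, at 251 ± 39.0 against 268 ± 28.3 CPM (n = 5 each, SD). Itgb1, an integrin chain, was at 254 ± 16.0 against 264 ± 4.88 CPM (n = 5 each, SD). Pgf, a further ligand of VEGFR1, had 1 to 2 reads in each Axl KO and 2 to 9 in each WT mouse and was too rare to be tested.

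Inside the cell, 34 of 36 signalling genes were tested and 14 had a log2 fold change above 0 (median −0.046). One of them, Dab2ip, which restrains VEGFR2 signalling, had an unadjusted p under 0.05 in the edgeR test, at 61.5 ± 5.77 CPM (n = 5, SD) in Axl KO and 69.4 ± 5.70 CPM (n = 5, SD) in WT mice (edgeR unadjusted p = 0.0470, adjusted p = 0.588). Of all tested genes 8.4% had an unadjusted p under 0.05 in that test. Nos3, the endothelial nitric oxide synthase, was at 20.6 ± 2.07 against 19.2 ± 2.50 CPM (n = 5 each, SD).

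Of 20 genes known to respond to VEGF or to mark the tip cells of sprouting vessels, 16 were tested. An unadjusted p under 0.05 in edgeR's test was found for 3 of them, in both directions, and for 8.4% of all tested genes. Unc5b, a guidance receptor of tip cells, was at 10.7 ± 1.33 CPM (n = 5, SD) in Axl KO and 8.27 ± 1.37 CPM (n = 5, SD) in WT mice (log2 fold change 0.38, unadjusted p = 0.0149). Lower in Axl KO mice were Adm, which encodes the vasodilator adrenomedullin (1.82 ± 0.358 against 2.99 ± 0.574 CPM, n = 5 each, SD; log2 fold change −0.69, edgeR unadjusted p = 0.0073), and Nid2, a basement membrane gene (10.7 ± 2.23 against 15.0 ± 2.54 CPM, n = 5 each, SD; −0.47, unadjusted p = 0.0091). The adjusted p was 0.571 for each of the 3. Esm1, a widely used tip cell gene, had 0 to 3 reads per mouse.

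Upstream of Vegfa, 16 of 17 genes of transcription and oxygen sensing were tested, 12 of them with a log2 fold change above 0 (median 0.045). Epas1, the HIF2A gene and the most abundant, was at 485 ± 83.9 CPM (n = 5, SD) against 465 ± 36.3 CPM (n = 5, SD), and Hif1a was at 118 ± 9.82 against 110 ± 6.94 CPM (n = 5 each, SD). Ppargc1a, whose product PGC-1α is known to raise Vegfa, was at 69.9 ± 8.17 against 68.9 ± 10.4 CPM (n = 5 each, SD). Vhl, which targets HIF proteins for destruction, was at 19.4 ± 2.69 against 15.6 ± 2.03 CPM (n = 5 each, SD; log2 fold change 0.32, edgeR unadjusted p = 0.0188, adjusted 0.571). Of 22 hypoxia targets 20 were tested, and 2 had an unadjusted p under 0.05, the mitophagy genes Bnip3 (302 ± 45.9 against 245 ± 19.2 CPM, n = 5 each, SD; log2 fold change 0.30, edgeR unadjusted p = 0.0105) and Bnip3l (96.5 ± 4.51 against 85.7 ± 6.47 CPM, n = 5 each, SD; 0.17, unadjusted p = 0.0192). The median of the tested targets was 0.033. Both lists stand beside the 8.4% of all tested genes that had an unadjusted p under 0.05 in the edgeR test.

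**Figure D5:**
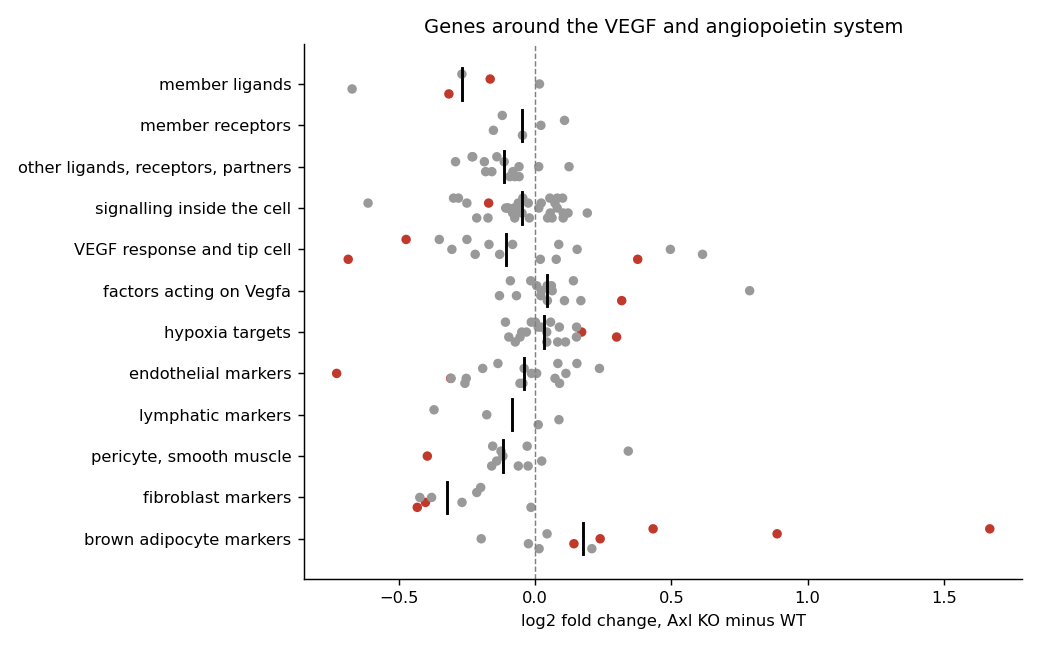
Log2 fold change (Axl KO minus WT) of every tested gene in 12 lists, one point per gene, red where the unadjusted edgeR p was under 0.05, with a black line at each list's median. Most points lie within 0.5 of 0, and the largest positive values belong to brown adipocyte markers.

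Endothelial content was read from 18 markers that are not members of the set. They summed to 650 to 802 CPM in Axl KO and 677 to 923 CPM in WT mice, with Axl KO replicate 3 and WT replicate 5 the highest of their groups, and 7 of the 18 had a log2 fold change above 0 (median −0.042). Pecam1, the platelet and endothelial adhesion molecule, was at 107 ± 19.7 CPM (n = 5, SD) in Axl KO and 110 ± 16.5 CPM (n = 5, SD) in WT mice. The 2 with an unadjusted p under 0.05 in edgeR's test were both lower in Axl KO mice. Of all tested genes 8.4% passed in either direction, and 3.86% passed and were lower. Cldn5, the tight junction claudin of endothelium, was at 12.9 ± 4.18 against 21.7 ± 4.89 CPM (n = 5 each, SD; log2 fold change −0.73, edgeR unadjusted p = 0.0037, adjusted p = 0.571), and 4 of 5 Axl KO mice lay below all WT mice. Egfl7, a secreted endothelial factor, was at 67.6 ± 10.6 against 84.0 ± 11.7 CPM (n = 5 each, SD; −0.31, edgeR unadjusted p = 0.0189, adjusted p = 0.571). With the mean of the endothelial markers as a covariate in edgeR's fit, Angpt1 differed by −0.35 on the log2 scale (edgeR unadjusted p = 0.0263). Vegfb then differed by −0.13 (edgeR unadjusted p = 0.0595). The 6 lymphatic markers summed to 11.1 to 33.5 CPM in Axl KO and 17.0 to 33.3 CPM in WT mice, with Ccl21a at 0 reads and 0 of the 4 tested genes at an unadjusted p under 0.05 or an adjusted one in the edgeR test.

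The markers of the other cell types in the depot were read in the same way. Of the 10 brown adipocyte markers, 5 had an unadjusted p under 0.05 in the edgeR test and a higher level in Axl KO mice. In that test 0 of them had an adjusted p under 0.05. Of all tested genes 8.4% had an unadjusted p under 0.05 in either direction. DESeq2 gave an adjusted p of 0.0285 for Dio2, the only gene of any list here that it called. The 5 were Ucp1, the uncoupling protein of brown fat (5561 ± 1197 against 4119 ± 863 CPM, n = 5 each, SD; log2 fold change 0.43, edgeR unadjusted p = 0.0185), Dio2, which activates thyroid hormone (99.6 ± 29.0 against 53.8 ± 15.5 CPM, n = 5 each, SD; 0.89, edgeR unadjusted p = 0.00097), Elovl3, Cox8b and Cox7a1. Elovl3, a fatty acid elongase, was at 79.5 ± 55.3 against 25.0 ± 11.4 CPM (n = 5 each, SD; 1.67, edgeR unadjusted p = 0.0050). The cytochrome c oxidase subunit genes Cox8b (1210 ± 81.4 against 1025 ± 40.7 CPM) and Cox7a1 (606 ± 49.5 against 549 ± 17.5 CPM, n = 5 each, SD) had edgeR unadjusted p-values of 0.0023 and 0.0464. For Dio2 and Cox8b all Axl KO mice lay above all WT mice. The median log2 fold change of the list was 0.18, against 0.043 for 7 general adipocyte markers, of which 0 passed at an adjusted or unadjusted p in edgeR's test. Among 9 macrophage markers, Trem2 alone had an unadjusted p under 0.05 (1.36 ± 0.620 against 0.671 ± 0.302 CPM, n = 5 each, SD, edgeR unadjusted p = 0.0189), and the median was −0.0034. The WT mean of Trem2 lay below 1 CPM. It passed the filter only through its level in Axl KO mice, so this p cannot be read as a difference. The 10 skeletal muscle markers all had a log2 fold change below 0 (median −1.05), with 0 at an unadjusted or adjusted p under 0.05 in the edgeR test. The 8 B and T cell markers were all too rare to be tested, at a summed 1.05 to 2.86 CPM. The 5 erythroid markers had a median of 0.021 and 0 calls of either kind by edgeR. Of 3 tested Schwann cell markers, Cdh19 was lower in all Axl KO mice than in any WT mouse (11.8 ± 0.722 against 14.3 ± 1.32 CPM, n = 5 each, SD; edgeR unadjusted p = 0.0097, adjusted 0.571). The share of 1.35% of all tested genes whose groups stood apart also stands beside Cdh19. The part of these cell types in the values of the 10 vascular genes was not tested.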

How the data were processed

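RNA-seq libraries of iBAT from 5 Axl KO and 5 WT mice were deposited as 1 table per mouse of whole-number read counts per gene, which the authors made from their reads. The submitters' processing notes list bcl2fastq, Trimmomatic 0.36, STAR 2.6.1c, DESeq2 and GRCm38.p5, whereas the study's methods name Trim Galore and hisat2. The counting tool and its strand setting are not given in the sources used here. The labels describe polyA RNA and the methods ribosomal RNA depletion.

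Identifiers were named with GENCODE M21 (GRCm38), which held 41163 of 41249. Genes with a mean above 1 CPM were tested with edgeR 4.0.16 (R 4.3.3; TMM factors, quasi-likelihood test, Benjamini-Hochberg adjustment over 13739 genes), and with DESeq2 1.42.0 as an alternative. The standard error is the log2 fold change divided by the square root of F. Ratios and correlations used log2 CPM with a prior count of 0.5, exact permutation tests over mice and 100000 permutations for correlations. Pairs of libraries all differed by more than counting noise. The fits were tested on simulated counts. Libraries are separate mice of a group, numbered in the labels.

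The 10 genes, the pathway lists and the marker lists were chosen with earlier results of these data known. Named were Axl, the 10 genes, the list members with an unadjusted p under 0.05, and the 5 genes closest to Vegfa and to Kdr. The 2 most abundant genes of a list were named for some lists only. Among those left out were Pik3r1, Cdc42, Mcam, Plxnd1, Egln1, Aldoa and Eno1, with edgeR unadjusted p-values from 0.158 to 0.530. Ptprb, Tie1, Vegfd, Pgf, Nos3, Esm1, Hif1a, Ppargc1a and Ccl21a were added for their known roles after their values were seen. Alternatives were other scalings and filters, a robust fit, marker covariates, a replicate block and leaving out each mouse.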

Additional observations from a re-analysis of the deposited data

Results flagged for a closer look

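In 4 of 30 groups of 5 mice that were examined, 1 mouse lay far from the other 4, by a gap over 0.71 of the group's whole range. For independent groups of normally distributed values, chance flags about 1 in 20, or 1.5 of 30. The groups here share mice and genes, so the 4 flags cannot be read as an excess over 1.5. The Flt1 level of WT replicate 5 was 131 CPM, where the next WT mouse had 94.2 CPM. For Angpt1, WT replicate 3 had 71.3 CPM and the next WT mouse 51.9 CPM. For Angpt2, Axl KO replicate 3 had 2.68 CPM and the next Axl KO mouse 1.20 CPM. The log2 ratio of Angpt2 to Angpt1 was −4.05 in the same mouse, where the next was −5.15, and this value rests on the same Angpt2 reads.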

How the results depend on the processing

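Across all genes DESeq2 called 9 at an adjusted p under 0.05 and, without Axl KO replicate 3, 231, against 1 with edgeR; the 10 vascular genes gave 0 in each, with Angpt2 and Vegfc unassessed by DESeq2 in the latter, an alternative chosen after seeing the data. The count at an unadjusted p under 0.05 was 2, and 1 with the skeletal muscle or the endothelial covariate. With 1 mouse left out it ran from 0 (without Axl KO replicate 1) to 4 (without Axl KO replicate 3), with 1 without Axl KO replicate 5 or WT replicate 3, 4 or 5. The count of genes whose groups stood apart then ran from 0 to 2 (without WT replicate 1, Vegfb and Angpt1). The shares of all tested genes in these refits are not given here, and smaller groups stand apart more easily. Leaving out 1 mouse gave log2 fold changes from −0.041 to 0.061 for Vegfa, from −0.023 to 0.095 for Kdr and from −0.11 to 0.078 for Flt1. The covariates turned Vegfa (−0.076 with muscle, −0.016 with endothelial markers) and Flt1 (0.032 and 0.060). The log2 ratio difference then ran from 0.13 to 0.21 for Vegfa to Vegfb, from −0.69 (without WT replicate 3) to −0.20 (without WT replicate 5) for Angpt2 to Angpt1, from 0.0094 (without Axl KO replicate 1) to 0.14 (without Axl KO replicate 5) for Kdr to Flt1, from −0.11 to 0.047 for Vegfa to Kdr and from 0.046 to 0.11 for the receptors to the endothelial markers; the exact permutation p was 0.0238 for the first without Axl KO replicate 3 and 0.0397 for the last without Axl KO replicate 2. The correlation of Vegfc with Kdr was 0.035 with plain library totals. The cause of these shifts was not tested. Same-numbered mice did not deviate together as a set (r from −0.357 to 0.371, with 1 of 5 pairs over 0.1). Only 1 Axl KO mouse was closest to its own number. So few pairs cannot exclude pairing, and the main fit did not use the numbers as pairs. With a replicate block the unadjusted count stayed at 2 and the adjusted count at 0. The edgeR standard error then fell from 0.12 to 0.066 for Flt1. For Angpt1 it fell from 0.13 to 0.092 (edgeR unadjusted p = 0.0095), while it rose for Flt4, Angpt2 and Tek. Sign flips over the numbers gave p from 0.125 to 1, where 0.0625 is the smallest possible in this exact test. With 8 to 33 reads for Vegfc and 4 to 28 for Angpt2 per mouse, depth limits both.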
